A study of Mus musculus with 15 samples.

Results

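The elastic fibre genes described here are 8 genes of the aortic wall, Eln, Fbn1, Fbln5, Lox, Loxl1, Emilin1, Mfap4 and Mfap5, taken by symbol from a gene count table of 37681 rows. All 8 were among the 15134 genes that passed the filter on low counts. They were measured in polyadenylated RNA of the thoracic aorta from adult male wild-type C57BL/6 mice, 10 to 12 weeks old, kept on regular chow with 12 hours of light and 12 of dark. Celecoxib at 30 mg/kg, rofecoxib at 10 mg/kg or the vehicle PEG-400 (polyethylene glycol) was given by gavage in 100 microlitres, and tissue was taken 6 hours later at Zeitgeber time 11. Both compounds are selective inhibitors of cyclooxygenase-2. Each of the 3 groups held 5 libraries, 1 per animal, so the spread given is that between animals.

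Elastic fibres let large arteries stretch and recoil. A core of cross-linked elastin is laid down on a scaffold of fibrillin microfibrils, guided by fibulin-5, and copper-dependent lysyl oxidases join the elastin monomers. Microfibril-associated proteins and emilin-1 lie at or near the microfibril surface. In the aorta these proteins come from smooth muscle cells of the media and from fibroblasts of the adventitia, mostly early in life, and the finished fibres turn over very slowly.

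Positions are those of the deposited table in mm9. Eln (ENSMUSG00000029675), elastin itself, lies at chr5:135179449-135223313. Fbn1 (ENSMUSG00000027204), the main fibrillin of adult microfibrils, lies at chr2:125126128-125333931, and Fbln5 (ENSMUSG00000021186), which carries elastin to microfibrils, at chr12:102984573-103057467. Lox (ENSMUSG00000024529) and Loxl1 (ENSMUSG00000032334), the cross-linking oxidases, lie at chr18:52675521-52689723 and chr9:58135328-58161221. Emilin1 (ENSMUSG00000029163), a glycoprotein of the elastin and microfibril interface, lies at chr5:31215573-31223853. Mfap4 (ENSMUSG00000042436), which binds elastin and collagen, lies at chr11:61298731-61302604, and Mfap5 (ENSMUSG00000030116), a small microfibril glycoprotein, at chr6:122455661-122479510. The span of Emilin1 shares 127 bases with that of Khk, and the span of Mfap4 shares 493 bases with that of Mapk7. Whether counting used strand is not stated in the labels. Khk had 3.17% of the count of Emilin1 and Mapk7 had 3.86% of that of Mfap4. How reads in the shared bases were counted is not stated, so these shares do not bound the error.

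Deposited counts summed to between 30937046 and 30967115 per library, and the 8 genes held 0.474% to 0.908% of them. All 7 smooth muscle markers were detected in every library, and their summed level was 44281 to 47535 CPM (counts per 1000000) under celecoxib, 43006 to 52902 CPM under rofecoxib and 36907 to 50760 CPM under vehicle. One library stood apart: celecoxib 1 had 972 CPM of Fkbp5, a glucocorticoid-induced gene, against 43.6 to 279.6 CPM in the other 14, and 1891 CPM of the metallothionein Mt2, against 25.6 to 304 CPM. Sympathetic neuron markers split the libraries into clusters that cut across the groups: celecoxib 2 and 4, rofecoxib 3 and 5 and vehicle 4 averaged 2.79 to 5.40 log2 CPM, and the other 10 at most 0.76. Values without celecoxib 1 are given beside many, but not all, of the differences and correlations that it moved.

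Promoter sequence is given for 3 of the 8 genes from the RefSeq promoter table (GRCm38.p6), which spans 250 bases before to 50 after a gene's start. The members shown take in a fibrillin, a fibulin and an emilin of the fibre. A member that is not shown may still have an entry there. Fbln5 has a pair of starts in the table, and the sequence of the first is printed. Capitals mark matches, on either strand, to 3 motifs that did not overlap each other there. The SMAD element was searched as CAGAC. The GC box was searched as GGGCGG. For the TATA box the letters were TATAAA.
Fbn1, chr2:125506389-125506688, minus strand: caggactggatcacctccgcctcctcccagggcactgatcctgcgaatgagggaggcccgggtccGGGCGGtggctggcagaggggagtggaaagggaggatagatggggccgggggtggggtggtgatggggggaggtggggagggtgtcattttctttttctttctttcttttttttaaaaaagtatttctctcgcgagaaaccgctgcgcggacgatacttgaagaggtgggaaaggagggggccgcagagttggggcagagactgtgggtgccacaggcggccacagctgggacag
Fbln5, chr12:101819070-101819369, minus strand: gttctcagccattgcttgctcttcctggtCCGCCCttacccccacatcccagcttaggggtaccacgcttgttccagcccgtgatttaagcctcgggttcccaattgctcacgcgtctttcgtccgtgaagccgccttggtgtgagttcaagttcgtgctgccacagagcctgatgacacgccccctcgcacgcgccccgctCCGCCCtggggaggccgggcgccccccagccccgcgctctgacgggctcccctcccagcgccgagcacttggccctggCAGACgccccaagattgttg
Emilin1, chr5:30913536-30913835, plus strand: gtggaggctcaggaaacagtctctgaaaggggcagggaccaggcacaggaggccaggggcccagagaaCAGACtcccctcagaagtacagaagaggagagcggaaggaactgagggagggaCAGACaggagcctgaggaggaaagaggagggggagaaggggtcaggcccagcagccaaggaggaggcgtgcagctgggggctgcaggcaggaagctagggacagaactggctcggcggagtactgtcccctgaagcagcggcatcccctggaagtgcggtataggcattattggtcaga
The Fbn1 window held 1 GC box, the printed Fbln5 window held 2 GC boxes and 1 SMAD element, and that of Emilin1 held 2 SMAD elements. Among all 32851 promoters of the table, 49.6% held the SMAD element, 35.7% the GC box and 13.6% the TATA box. GC content was 60.3% for Fbn1, 65.7% for the printed Fbln5 window and 61.7% for Emilin1, against a median of 52.7% over the table. The other Fbln5 start (chr12:101818435-101818734, minus strand) had 48.7% GC, 2 SMAD elements and 0 GC boxes. A match is a description of the letters only.

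Elastin and the microfibril protein Mfap4 were the most abundant of the 8 transcripts per length. Divided by the union of the exons of GENCODE M21, Eln averaged 439.6 ± 147 CPM per kilobase and Mfap4 429 ± 47.9 CPM per kilobase (SD, n = 15). Loxl1 followed at 125 ± 17.7, Fbln5 at 95.5 ± 13.7, Mfap5 at 70.9 ± 10.4, Emilin1 at 55.7 ± 7.52, Lox at 51.5 ± 20.7 and Fbn1 at 34.6 ± 4.96 CPM per kilobase. Eln exceeded Mfap4 in 6 of 15 libraries, so these neighbours did not differ beyond their spread, whereas Mfap4 exceeded Loxl1 in 15 of 15 with no overlap. Loxl1 over Fbln5, Fbln5 over Mfap5 and Lox over Fbn1 also held in 15 of 15 libraries, Mfap5 over Emilin1 in 14 and Emilin1 over Lox in 12. The order depends on the length used: per kilobase of the longest coding transcript Eln had 1.91 ± 0.51 times the level of Mfap4 (SD, n = 15), higher in 15 of 15 libraries, and Mfap5 came next after Mfap4 at 169 CPM per kilobase.

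**Figure D1:**
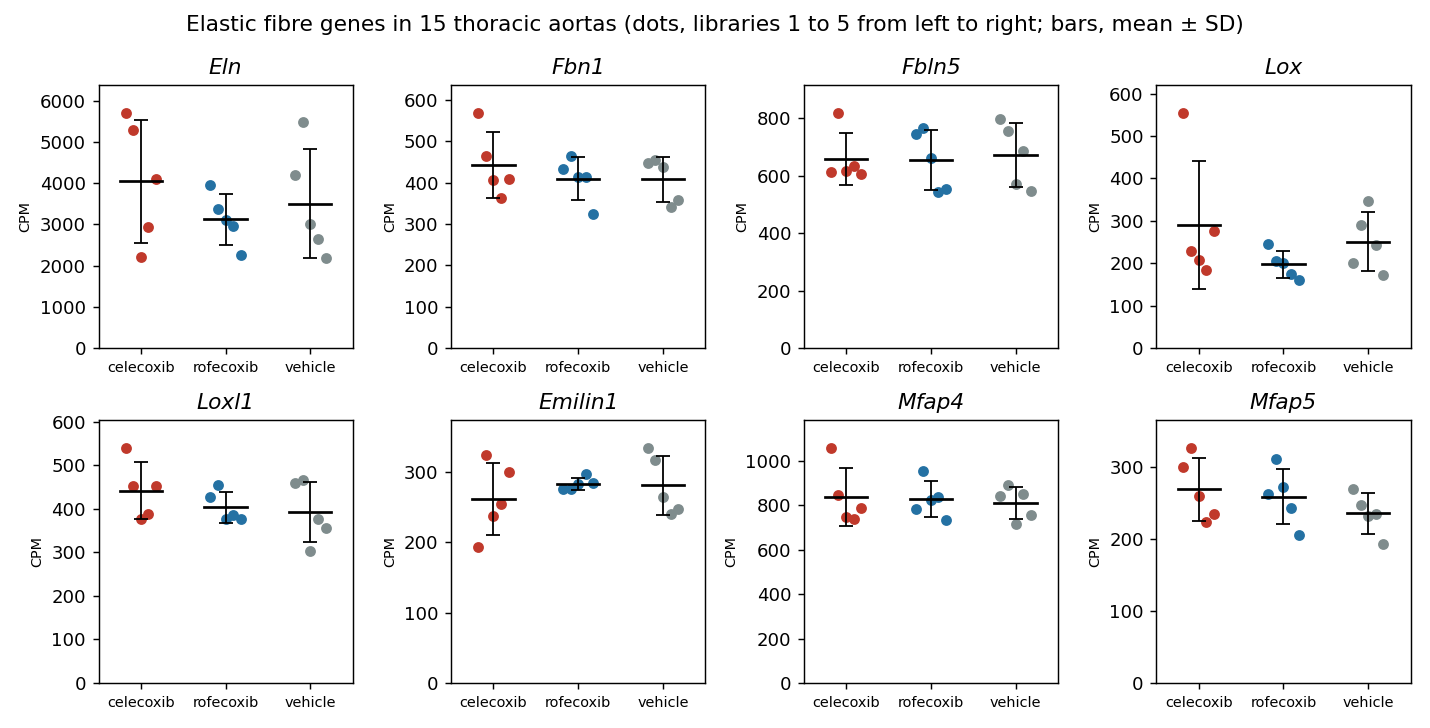
Level of each elastic fibre gene in CPM by group; dots are libraries 1 to 5 from left to right, and bars give the mean and SD (n = 5). Eln and Lox spread most, and celecoxib 1 has the highest Lox at 554 CPM.

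Elastin spread widely within every group. Eln was at 5699, 5299, 2202, 2929 and 4103 CPM in celecoxib libraries 1 to 5, at 3957, 3375, 3099, 2956 and 2253 CPM in rofecoxib libraries, and at 4204, 5476, 3008, 2657 and 2186 CPM in vehicle libraries. The groups overlapped, with high and low animals in the celecoxib and vehicle groups alike. Eln averaged 4047 ± 1496 CPM under celecoxib, 3128 ± 621 CPM under rofecoxib and 3506 ± 1330 CPM under vehicle (SD, n = 5 each). In the edgeR quasi-likelihood fit, with p-values adjusted over all genes by the Benjamini-Hochberg method, the log2 fold change was 0.21 ± 0.28 (SE) for celecoxib against vehicle (adjusted p = 0.811). Its 95% interval ran from -0.40 to 0.81, and without celecoxib 1 the value was 0.060, and without vehicle 2 it was 0.44. For rofecoxib against vehicle it was -0.16 ± 0.28, with an interval from -0.77 to 0.44 (edgeR adjusted p = 0.999995, as for each of the 8 genes in that comparison).

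Of the microfibril genes, Fbn1 was at 568, 464, 406, 364 and 409.5 CPM under celecoxib, 432, 463, 413.5, 413.8 and 324 CPM under rofecoxib, and 447, 454, 437, 341 and 358 CPM under vehicle. The groups overlapped, and celecoxib 1 was the highest of all 15. Its log2 fold change was 0.12 ± 0.13 for celecoxib against vehicle with an edgeR adjusted p of 0.749 and a value of 0.022 without celecoxib 1, and 0.0073 ± 0.13 for rofecoxib against vehicle. Mfap4 ranged from 739.9 to 1059.7 CPM under celecoxib, 736 to 954 CPM under rofecoxib and 716 to 893 CPM under vehicle. Mfap4 had the smallest ratio of highest to lowest library among the 8 genes, 1.48. For celecoxib against vehicle its log2 fold change was 0.044 ± 0.10 (edgeR adjusted p = 0.892), and -0.045 without celecoxib 1. Mfap5 averaged 269 ± 43.3 CPM under celecoxib, 259 ± 38.8 CPM under rofecoxib and 235 ± 28.2 CPM under vehicle (SD, n = 5 each). Its log2 fold change for celecoxib against vehicle was 0.19 ± 0.12, with an interval from -0.072 to 0.46, and its edgeR adjusted p of 0.560 was the smallest of the 8 genes in that comparison.

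Fbln5 was at 611, 817, 615, 633 and 606 CPM under celecoxib, 743, 766, 662, 541 and 553 CPM under rofecoxib, and 796, 756, 569, 686 and 546 CPM under vehicle. Celecoxib 2 lay above the other 4 celecoxib libraries, which kept within 606 to 633 CPM, and the groups overlapped. The log2 fold change was -0.030 ± 0.13 for celecoxib against vehicle, with an edgeR adjusted p of 0.947, and -0.038 ± 0.13 for rofecoxib against vehicle.

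The cross-linking enzymes differed from each other in spread. Lox was at 554, 228, 207, 183 and 277 CPM under celecoxib, 245, 205, 201, 175 and 161 CPM under rofecoxib, and 201, 290.3, 347, 244 and 173 CPM under vehicle. Celecoxib 1 had the highest value of all, and the other 4 celecoxib libraries lay within the range of the vehicle libraries. The log2 fold change was 0.21 ± 0.28 for celecoxib against vehicle (edgeR adjusted p = 0.808) and turned to -0.16 without celecoxib 1. For rofecoxib against vehicle it was -0.35 ± 0.28, with an interval from -0.94 to 0.25. Loxl1 was tighter, at 376 to 539.6 CPM under celecoxib, 375.6 to 455 CPM under rofecoxib and 303 to 465 CPM under vehicle. Its log2 fold change was 0.17 ± 0.12 for celecoxib against vehicle with an edgeR adjusted p of 0.607 and a value of 0.099 without celecoxib 1, and 0.043 ± 0.12 for rofecoxib against vehicle.

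Emilin1 differed from most of the others in celecoxib 1. It was at 194, 324, 237, 254 and 299 CPM under celecoxib, 275.5, 275.0, 283, 296 and 283.5 CPM under rofecoxib, and 334, 316, 265, 241 and 248 CPM under vehicle. Celecoxib 1 was the lowest of all 15 libraries for Emilin1 and the highest for Eln, Fbn1, Lox, Loxl1 and Mfap4. The rofecoxib libraries lay close together, with a coefficient of variation of 3.06%, against 19.7% under celecoxib and 15.0% under vehicle; the difference in spread was not tested. The log2 fold change was -0.10 ± 0.12 for celecoxib against vehicle (edgeR adjusted p = 0.790), and -0.000255 without celecoxib 1. For rofecoxib against vehicle it was 0.010 ± 0.12.

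**Figure D2:**
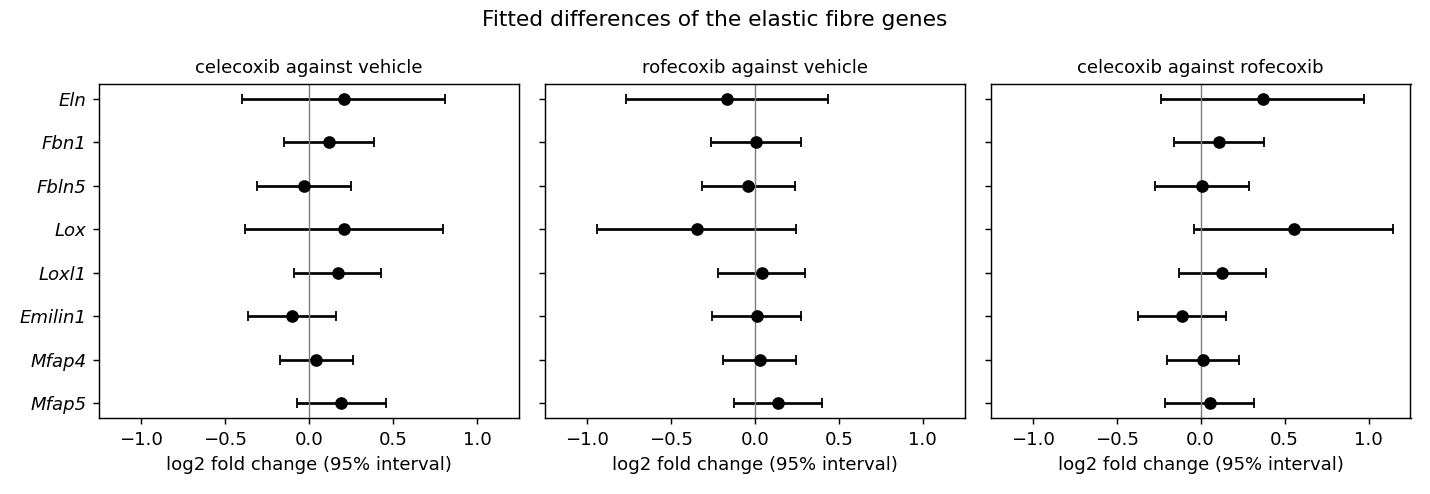
Fitted log2 fold change (x axis) of each gene in the 3 comparisons; points are edgeR estimates and bars 95% intervals. Every interval includes 0, and those of Eln and Lox are the widest.

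None of the 8 genes passed the threshold in a comparison with vehicle. For celecoxib against vehicle edgeR called 0 of 8 at an adjusted p under 0.05, beside 0% of all genes tested, and 0 of 8 had an unadjusted p under 0.05, beside 12.5%. Groups were free of overlap for 0 of 8 genes, beside 1.3% of all genes. For rofecoxib against vehicle the count was also 0 of 8 in each case, beside 0%, 5.18% and 1.16% of all genes. DESeq2 and limma-voom also called 0 of the 8. Of all 15134 genes, DESeq2 called 126 for celecoxib and 0 for rofecoxib against vehicle, and limma-voom called 0 in both. The median log2 fold change of the 8 genes was 0.14 for celecoxib and 0.0089 for rofecoxib against vehicle, beside 0.0051 and -0.00067 over all genes tested. Over the alternatives the median of the 8 ranged from 0.0056 to 0.21 for celecoxib, with 0.013 when celecoxib 1 was left out, and from -0.081 to 0.068 for rofecoxib, so its sign turned there. The comparisons share the vehicle libraries.

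Celecoxib was also set against rofecoxib, at doses that differ. edgeR called 0 of 8 genes, beside 0% of all genes; 0 had an unadjusted p under 0.05, beside 6.96%, and 0 did not overlap, beside 1.32%. Lox averaged 289.9 ± 152 CPM under celecoxib and 198 ± 32.1 CPM under rofecoxib (SD, n = 5 each). Its log2 difference of 0.55 ± 0.28 had an interval from -0.040 to 1.15 (edgeR adjusted p = 0.709), and it was 0.18 without celecoxib 1. For Eln the log2 difference was 0.37 ± 0.28, with an interval from -0.23 to 0.98 (edgeR adjusted p = 0.795), and it was 0.21 without celecoxib 1. For Fbn1 it was 0.11 ± 0.13, and 0.0034 without that library. The difference was positive for 7 of the 8 genes, Emilin1 being the exception, and the median over the 8 was 0.083, or 0.021 without celecoxib 1.

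Adipocyte markers were given no test between groups, and their ranges overlapped. The 7 brown adipocyte markers, all detected in every library, summed to 87.5 to 548 CPM under celecoxib, 207 to 485 CPM under rofecoxib and 397 to 1639 CPM under vehicle. The 7 white adipocyte markers summed to 694 to 1618 CPM under celecoxib, 1011 to 2343 CPM under rofecoxib and 1323 to 3104 CPM under vehicle. With the mean of both lists as a covariate, the log2 fold change of Eln for celecoxib against vehicle was -0.035, that of Emilin1 -0.36, that of Fbln5 -0.17, that of Mfap5 0.021 and that of Fbn1 0.029. For Lox, Loxl1 and Mfap4 that value is not printed. Over the alternatives apart from leaving out 1 library, that covariate included, Lox ranged from -0.017 to 0.29. Loxl1 ranged from 0.062 to 0.18 and Mfap4 from -0.046 to 0.055. The edgeR fit with that covariate called 0 of 8 genes in each comparison, and the part of adipocytes in the differences was not tested. Adventitial fibroblast markers averaged 8.62 ± 0.28 log2 CPM under celecoxib, 8.53 ± 0.28 under rofecoxib and 8.60 ± 0.20 under vehicle (SD, n = 5 each). In bulk tissue, fewer cells of a type and less RNA per cell cannot be told apart.

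Between animals, the elastic fibre genes spread more than most genes with a mean of at least 100 CPM, a set not matched to the level of each gene. Within groups, the SD of log2 CPM was 0.49 for Eln and 0.45 for Lox, which placed them at percentiles 97.6 and 97.0 of the 1995 genes with a mean of at least 100 CPM. Fbln5, Fbn1, Mfap5, Emilin1 and Loxl1 had SDs of 0.21 to 0.22, and Mfap4, the lowest, had 0.16 at percentile 70.5, where the median of those genes was 0.12. The highest library was 3.44 times the lowest for Lox and 2.61 times for Eln. For Lox, celecoxib 1 had 554 CPM, and the next highest library, vehicle 3, had 347 CPM. The SDs, percentiles and ratios of all 8 genes include celecoxib 1 and are not given without it. That library was the highest for Eln, Fbn1, Lox, Loxl1 and Mfap4 and the lowest for Emilin1. Rofecoxib 5 was among the 3 lowest libraries for 7 of the 8 genes and vehicle 5 for 6, while celecoxib 1 was among the 3 highest for 6 and celecoxib 2 and vehicle 2 for 5 each.

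**Figure D3:**
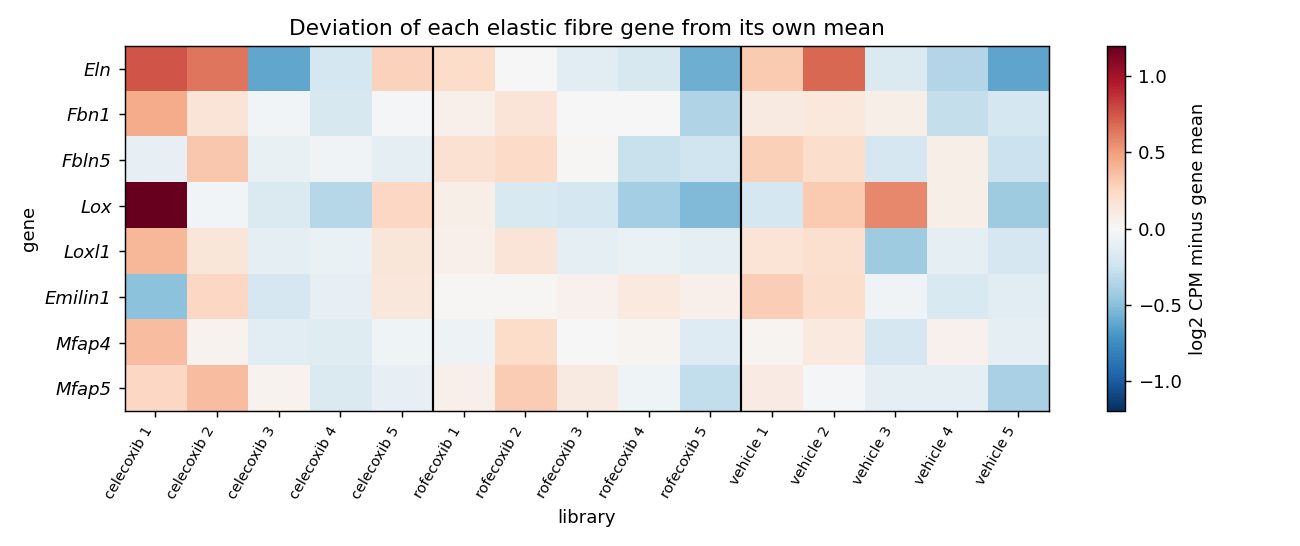
Deviation of log2 CPM from each gene's own mean (colour) for 8 genes (rows) in 15 libraries (columns). Celecoxib 1 is the highest library for 5 genes and the lowest for Emilin1. Rofecoxib 5 and vehicle 5 are low for most.

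Most of these genes varied together from animal to animal. Across the 15 libraries, r was positive in 25 of the 28 pairs of genes, and 14 passed a two-sided permutation test on Pearson's r after Benjamini-Hochberg adjustment over the 28 pairs, 12 of them on Spearman's rho as well. Elastin had 6 of its 7 pairs passing with all libraries. Without celecoxib 1, its pairs with Lox and Mfap4 did not pass and that with Emilin1 did. Eln and Fbn1 gave r = 0.80 and rho = 0.85 (permutation p = 0.00027 and 0.00013, adjusted p = 0.00401 and 0.00322). Without the 2 libraries farthest from the median of Fbn1, r was 0.70. Eln and Loxl1 gave r = 0.79 and rho = 0.84 (permutation p = 0.00038 and 0.00023, adjusted p = 0.00401 and 0.00322). Without the 2 libraries farthest from the median of Loxl1, r was 0.90. Among 1987 other genes with at least 100 CPM, the median r with Eln was 0.051, and 0.352% reached the r of Fbn1 and 0.453% that of Loxl1.

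**Figure D4:**
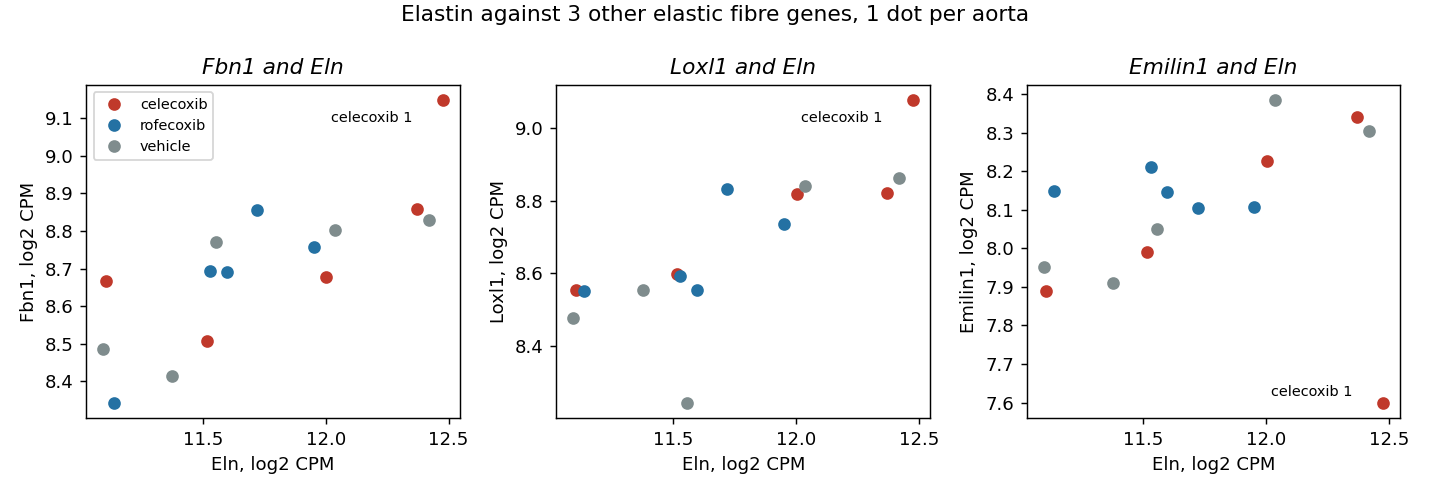
Level of Eln (x axis, log2 CPM) against Fbn1, Loxl1 and Emilin1 (y axis, log2 CPM) in 15 libraries, coloured by group. Fbn1 and Loxl1 follow Eln, and celecoxib 1 lies off the trend for Emilin1.

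Microfibril and cross-linking genes were also tied to each other. Fbn1 and Mfap5 gave r = 0.78 and rho = 0.79 (permutation p = 0.00075 and 0.0008, adjusted p = 0.00525 and 0.00728), and r = 0.80 without the 2 farthest libraries. Loxl1 and Mfap4 gave r = 0.80 and rho = 0.78 (permutation p = 0.00043 and 0.00104, adjusted p = 0.00401 and 0.00728), and r = 0.67 without the 2 farthest. With group means taken out, 11 of the 14 pairs passed, and 6 passed whichever single library was left out. The day on which each library was built is not stated, so no value within a day can be had.

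Celecoxib 1 decided which pairs passed for several genes, Emilin1 and Lox among them. With all 15 libraries, 0 of the 7 pairs with Emilin1 passed; Eln and Emilin1 gave r = 0.23 and rho = 0.46 (permutation p = 0.407 and 0.0859, adjusted p = 0.495 and 0.134). Without celecoxib 1, Eln and Emilin1 gave r = 0.80 (n = 14, adjusted permutation p = 0.00915), and 2 of the 7 pairs passed. For Lox, 2 of 7 pairs passed with all libraries and 0 of 7 without celecoxib 1. Lox and Loxl1 gave r = 0.40 with all libraries and -0.0066 without it. In total 13 pairs passed without celecoxib 1, 8 of them among the original 14. The 6 lost pairs were Eln with Lox and Mfap4, Fbn1 with Lox, Loxl1 and Mfap4, and Loxl1 with Mfap5, at r = 0.47 to 0.56 without that library (adjusted permutation p = 0.0718 to 0.119). The 5 gained pairs were Emilin1 with Eln and Loxl1, and Fbln5 with Fbn1, Loxl1 and Mfap4, at r = 0.61 to 0.80 (adjusted permutation p = 0.00915 to 0.0470).

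**Figure D5:**
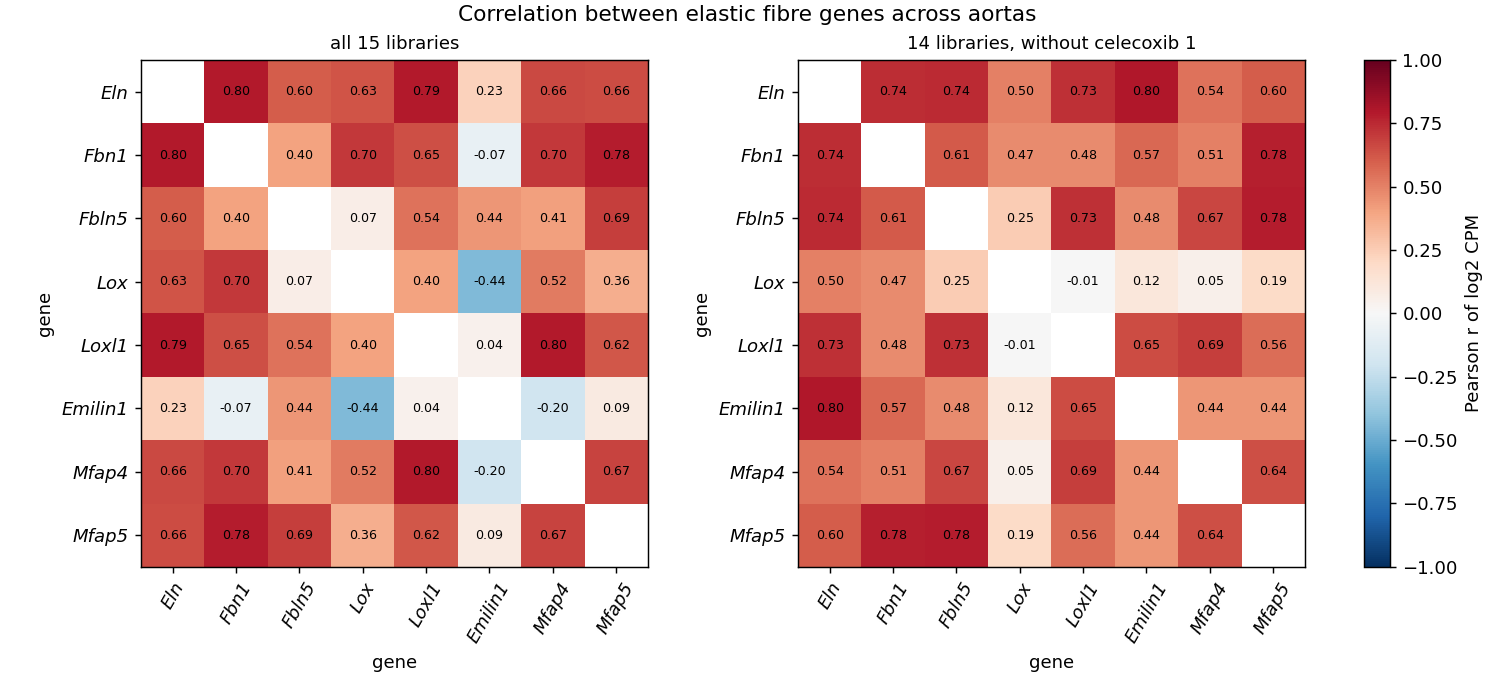
Pearson r of log2 CPM for each pair of genes, with all 15 libraries on the left and the 14 without celecoxib 1 on the right. Eln with Emilin1 is 0.23 on the left and 0.80 on the right; Lox with Loxl1 is 0.40 on the left and -0.0066 on the right.

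The genes were also set against cell type markers. Of 72 relations between the 8 genes and 9 marker lists, 0 passed the permutation test after Benjamini-Hochberg adjustment, and 8 had an unadjusted p under 0.05. The closest were Fbn1 with the Schwann cell and nerve list (r = -0.70, rho = -0.58, permutation p = 0.00286 and 0.0255, adjusted p = 0.206 and 0.517, r = -0.68 without the 2 farthest libraries) and Eln with the adventitial fibroblast list (r = 0.66, rho = 0.59, permutation p = 0.00767 and 0.0226, adjusted p = 0.228 and 0.517, r = 0.52 without the 2 farthest). Eln and the smooth muscle list gave r = 0.11 and rho = 0.086 (permutation p = 0.691 and 0.762). Without celecoxib 1, Fbn1 with the Schwann cell and nerve list gave r = -0.67 (adjusted permutation p = 0.252). Eln with the adventitial fibroblast list then gave r = 0.75 (adjusted permutation p = 0.131). Lox with that fibroblast list moved from r = 0.38 to 0.62 (adjusted permutation p = 0.622 and 0.252). The part of these cell types in the members' spread was not tested.

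Among genes outside the list, those whose log2 CPM over the 15 libraries was most like the mean of the 8 were Loxl2 (r = 0.91), Adamts2 (0.88), Col6a1 (0.88), Sparc (0.88), Ppapdc1b (0.87), Fstl1 (0.86), Col5a2 (0.86) and Wisp2 (0.86), out of 11915 genes. Without celecoxib 1 the order among these 8 changed: Fstl1 had r = 0.93 and Loxl2 r = 0.89. Loxl2 is a lysyl oxidase, Adamts2 trims procollagen, Col6a1 and Col5a2 are collagen chains and Sparc binds collagen. Loxl2 had 73.2 CPM in vehicle 5, its lowest library, and 114 CPM in celecoxib 1, its highest. For Eln alone the closest were Loxl2 (r = 0.94), Sparc (0.92) and Adamts2 (0.91), and for Loxl1 they were Fkbp10 (0.92), Loxl2 (0.92) and Pole3 (0.91). For Fbn1 they were Lig3 (0.93), Asph (0.91) and Stom (0.89), and for Fbln5 Diap3 (0.88), Dnajb11 (0.86) and Fstl1 (0.83). Lox was closest to Map4k4 (0.93), Rab5a (0.91) and Eif1a (0.89), which without celecoxib 1 had r = 0.82 for Map4k4, 0.79 for Rab5a and 0.72 for Eif1a. Mfap4 was closest to Cdc16 (0.87), Copb2 (0.86) and Srpr (0.84), and Mfap5 to Fstl1 (0.86), Mcm3 (0.84) and Ankrd12 (0.84). Emilin1 was closest to Faim (0.95), Acpl2 (0.95) and Ifngr2 (0.94), which were all lowest in celecoxib 1, as Emilin1 was. These values are descriptions, over libraries that share groups and depth.

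Partner genes of elastic fibre assembly were read from 5 lists, of which 67 of 70 genes were tested; Fbn2, Elane and Serpina1a were too low. edgeR called 0 of 67 in every comparison, and DESeq2 and limma-voom also called 0. Of all 15134 genes, edgeR and limma-voom called 0 in each comparison. DESeq2 called 126 for celecoxib against vehicle, 0 for rofecoxib against vehicle and 19 for celecoxib against rofecoxib. At an unadjusted p under 0.05, 1 was higher and 1 lower for celecoxib against vehicle, 0 higher and 3 lower for rofecoxib against vehicle, and 3 higher and 1 lower for celecoxib against rofecoxib. Over all genes tested the shares at that p were 12.5% for celecoxib against vehicle, 5.18% for rofecoxib against vehicle and 6.96% for celecoxib against rofecoxib. The median log2 fold change over the 67 was 0.019 for celecoxib and -0.021 for rofecoxib against vehicle. In the assembly list (19 of 20 tested), Adamtsl2, which binds fibrillin microfibrils, averaged 31.7 ± 7.35 CPM under celecoxib, 29.0 ± 2.97 CPM under rofecoxib and 40.7 ± 10.6 CPM under vehicle (SD, n = 5 each). Its log2 fold change was -0.36 ± 0.17 for celecoxib and -0.49 ± 0.17 for rofecoxib against vehicle (edgeR adjusted p = 0.401 and 0.896). Thsd4, a microfibril-binding protein, averaged 791 ± 66.9 CPM under celecoxib, 794 ± 77.0 CPM under rofecoxib and 712 ± 76.2 CPM under vehicle, with log2 fold changes of 0.15 and 0.16 (edgeR adjusted p = 0.490 and 0.990).

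All 9 cross-linking and copper genes were tested, and their median log2 fold change was 0.24 for celecoxib and -0.020 for rofecoxib against vehicle. Loxl3, another lysyl oxidase, averaged 158 ± 74.9 CPM under celecoxib, 118 ± 5.21 CPM under rofecoxib and 125 ± 4.14 CPM under vehicle (SD, n = 5 each). The celecoxib libraries spread far more than the others for Loxl3, and 2 of 5 of them exceeded the vehicle median. Its log2 fold change for celecoxib was 0.34 ± 0.20 against vehicle (edgeR adjusted p = 0.525). Values with a library left out are not given for single partner genes. Atp7a, the copper pump that loads lysyl oxidases, averaged 4.42 ± 0.82 CPM under celecoxib, 4.15 ± 0.56 CPM under rofecoxib and 3.66 ± 0.72 CPM under vehicle, with log2 fold changes of 0.27 and 0.18 (edgeR adjusted p = 0.505 and 0.999995). The copper chaperone Atox1 averaged 30.9 ± 1.73 CPM under rofecoxib and 33.6 ± 4.42 CPM under vehicle, a log2 fold change of -0.12 (edgeR adjusted p = 0.999995).

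Elastin breakdown genes and inhibitors (14 of 16 tested) had median log2 fold changes of -0.020 for celecoxib and -0.077 for rofecoxib against vehicle. Timp4, an inhibitor of matrix metalloproteinases, averaged 33.4 ± 7.45 CPM under rofecoxib and 41.3 ± 6.66 CPM under vehicle (SD, n = 5 each), a log2 fold change of -0.31 ± 0.14 (edgeR adjusted p = 0.939). Timp3, of the same family, averaged 986 ± 58.8 CPM under rofecoxib and 917 ± 45.2 CPM under vehicle, a log2 fold change of 0.10. Under celecoxib the smallest p-values of that list were those of Mmp9, an elastin-cleaving protease at 2.89 ± 0.77 CPM, against 3.61 ± 0.93 CPM under vehicle, and of Timp1 at 20.4 ± 6.78 CPM, against 16.3 ± 4.15 CPM under vehicle (edgeR adjusted p = 0.564 and 0.587).

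In the TGF-beta list, whose growth factors are held on microfibrils, all 15 genes were tested and the medians were -0.015 for celecoxib and 0.017 for rofecoxib against vehicle. Smad6, an inhibitory Smad, averaged 40.1 ± 3.92 CPM under rofecoxib and 59.4 ± 10.3 CPM under vehicle (SD, n = 5 each). Its log2 fold change was -0.57 ± 0.15, and 0 of 5 values under rofecoxib exceeded the vehicle median (edgeR adjusted p = 0.896). Tgfbr2, the type II receptor, averaged 260.1 ± 4.41 CPM under rofecoxib and 246 ± 12.0 CPM under vehicle, a log2 fold change of 0.082. The ligand Tgfb2 averaged 76.7 ± 13.7 CPM under celecoxib and 93.4 ± 12.5 CPM under vehicle, a log2 fold change of -0.28 ± 0.13 (edgeR adjusted p = 0.390). The ligand Tgfb3 averaged 192 ± 54.8 CPM under celecoxib and 237 ± 37.9 CPM under vehicle, a log2 fold change of -0.31 ± 0.17 (edgeR adjusted p = 0.482).

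Wall proteoglycans and integrins (10 of 10 tested) had medians of 0.087 for celecoxib and 0.011 for rofecoxib against vehicle. Vcan, the large proteoglycan versican, averaged 253 ± 42.6 CPM under celecoxib and 209 ± 22.6 CPM under vehicle (SD, n = 5 each), a log2 fold change of 0.28 ± 0.11 (edgeR adjusted p = 0.339). Itgb1, the beta 1 integrin, averaged 2807 ± 217 CPM under celecoxib, 2754 ± 146 CPM under rofecoxib and 2605 ± 83.1 CPM under vehicle. Its log2 fold changes against vehicle were 0.11 for celecoxib and 0.080 for rofecoxib (edgeR adjusted p = 0.467 and 0.999995). Bgn, the small proteoglycan biglycan, averaged 7833 ± 334 CPM under rofecoxib and 7313 ± 675 CPM under vehicle, with 5 of 5 values under rofecoxib above the vehicle median and a log2 fold change of 0.099 (edgeR adjusted p = 0.999995).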

How the data were processed

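The authors deposited a table of whole-number counts per gene for 15 libraries of mouse thoracic aorta. CASAVA 1.8.2, STAR 2.5.2a and the build mm9 were named, per the submitters' processing notes. The sources used here do not give the counting tool, the annotation release or whether strand was used. The deposited counts had nearly equal totals of 30937046 to 30967115, and a step that made them so is not recorded, so the depth before it is unknown. Libraries of a group differed beyond sampling noise (smallest chi-square per gene 13.8), so each counted once. Labels state that libraries were built over several days without giving the day of each.

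Genes were filtered by filterByExpr and scaled by TMM (factors 0.953 to 1.04) in edgeR 4.0.16 under R 4.3.3, leaving 15134 genes with 99.95% of the counts. One robust quasi-likelihood fit of all 15 libraries gave 3 contrasts, with Benjamini-Hochberg adjustment over all genes and a threshold of 0.05. Standard errors were derived from the fold change and the F statistic. CPM used the scaled totals, and log2 CPM a prior count of 2. Correlations used 100000 permutations (two-sided), adjusted over 28 pairs of genes and 72 pairs of gene and marker list. The 2 farthest libraries were set for each pair by distance from the median of 1 side. That side was the marker list or, for 2 genes, the later one in the order of the opening list. Of 12 marker lists, those of B and T cells and of mesothelium had 1 gene tested each and that of sympathetic neurons split the libraries into clusters, so these were left out. The fit and the correlations were tested on simulated data. Lengths came from GENCODE M21 exons, used for lengths only.

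Named genes were the 8 members, the 2 genes of smallest p per partner list in each comparison with vehicle, and by Pearson r the 3 most like each member and the 8 most like their mean, among genes of at least 1 CPM. Members and lists were chosen with earlier results of these data known. Alternatives covered scaling, filters, DESeq2 1.42.0, limma-voom (limma 3.58.1, also with sample weights), an adipocyte covariate, a replicate block and leaving out each library. Figures were drawn with matplotlib 3.10.9.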

Additional observations from a re-analysis of the deposited data

Results flagged for a closer look

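In 2 of 24 sets of 5 libraries (8 genes in 3 groups), 1 library lay far from the others of its group, where chance gives about 1 in 20. Fbln5 was at 817 CPM in celecoxib 2 and at 606 to 633 CPM in the other celecoxib libraries, a gap of 0.872 of the group's range. Lox was at 554 CPM in celecoxib 1 and at 183 to 277 CPM in the other celecoxib libraries, a gap of 0.747 of the range. The limit for 5 libraries is 0.71. Celecoxib 1 was also the library with the high Fkbp5 and Mt2. The part of that library's condition in its Lox value was not tested.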

How the results depend on the processing

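Over 24 differences (8 genes in 3 comparisons) and 480 values from alternatives, 0 were called, and the smallest adjusted p was 0.303, for Mfap5 under celecoxib against vehicle. The sign of a log2 difference turned in 13 values apart from those that left out a library. Without scaling, celecoxib against rofecoxib gave -0.0098 for Fbln5 and -0.0068 for Mfap4. With limma-voom sample weights, celecoxib against vehicle gave -0.017 for Lox and -0.046 for Mfap4, rofecoxib against vehicle gave -0.00094 for Fbn1, -0.027 for Loxl1 and -0.035 for Emilin1, and celecoxib against rofecoxib gave -0.048 for Mfap4. With the adipocyte covariate, celecoxib against vehicle gave -0.035 for Eln, rofecoxib against vehicle gave -0.045 for Fbn1 and -0.14 for Emilin1, and celecoxib against rofecoxib gave -0.052 for Fbln5 and -0.017 for Mfap5. The cause of these turns was not tested.

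Leaving out 1 library turned the sign in 30 values. For celecoxib against vehicle the range was -0.11 to 0.039 for Fbln5, -0.16 to 0.37 for Lox and -0.045 to 0.097 for Mfap4. For rofecoxib against vehicle it was -0.29 to 0.066 for Eln, -0.036 to 0.081 for Emilin1, -0.10 to 0.031 for Fbln5, -0.046 to 0.086 for Fbn1, -0.026 to 0.13 for Loxl1 and -0.020 to 0.079 for Mfap4. For celecoxib against rofecoxib it was -0.086 to 0.073 for Fbln5, -0.085 to 0.075 for Mfap4 and -0.027 to 0.13 for Mfap5.

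The count of correlated pairs was 14 with all libraries. It ranged from 9 (without vehicle 5) to 16 (without vehicle 3) when 1 library was left out. Without the 2 farthest libraries it was 9, a count over pairs that did not all drop the same libraries. The ratio of Eln to Mfap4 per length was 1.01 with exon unions and 1.91 with the longest coding transcript, a choice made after seeing the data. Over all genes, DESeq2 called 126, 0 and 19 in the 3 comparisons where edgeR called 0, and edgeR called up to 8 for celecoxib against vehicle with celecoxib 4 left out. With the adipocyte covariate the genes at an unadjusted p under 0.05 for rofecoxib against vehicle numbered 328, against 784.

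No pairing by replicate number was seen, though this check over all genes cannot show that there was none. Deviations of same-numbered libraries from their group means had r over 0.1 in 6 of 15 pairs, with r from -0.72 to 0.78. Of 15 libraries, 4 matched their own number best. With a replicate block 0 members were called in each comparison.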
